A study of Mus musculus with 2 samples.

Results

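The histone cluster genes examined here were the 60 genes, of 15745 in the deposited count table, whose symbols begin with Hist1h, Hist2h, Hist3h or Hist4h. They are called members below. They encode the 4 core histones and linker histone H1: 5 members are H1 genes, 17 are H2A, 13 are H2B, 12 are H3 and 13 are H4. In the mm10 assembly 48 members lie on chromosome 13, 9 on chromosome 3, 2 on chromosome 11 and 1 on chromosome 6. The mouse annotation GENCODE M21 lists 70 such genes, and the other 10 were not analysed here.

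The cells came from intestinal organoids, which are epithelial cultures that form crypt-like buds from dissociated gut cells. The labels give wild type C57BL/6 mice aged 10 weeks, and 1 library each from organoids at day 3 and day 5. All organoids were amplified in IntestiCult medium and then grown in ENR, a base medium with EGF, Noggin and R-Spondin. For the first day the ENR held 20% Wnt3a-conditioned medium, 10 µM of the ROCK inhibitor Y-27632 and 3 µM of the GSK3B inhibitor CHIR99021. CHIR99021 was then left out up to day 3, and from day 3 to day 5 the medium was ENR alone. Day, medium and library therefore cannot be told apart.

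Most histone cluster genes are replication-dependent: they are transcribed in S phase, when new DNA needs new nucleosomes. Their mRNAs normally end in a conserved stem-loop bound by SLBP instead of a poly-A tail, and they are degraded when replication stops. Some of these genes can also make a longer, polyadenylated mRNA that remains in cells outside the cycle. The libraries were made with a 3′ kit on polyA RNA, so the counts below are of captured molecules and are no measure of how much histone mRNA a cell held. Each captured molecule carries a unique molecular identifier (UMI).

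Capture depends on the 3′ end of a transcript, so the stem-loop sites of 3 members with a long run of A before the stem-loop are shown first. The 16 capitals are the match to the histone stem-loop pattern, searched on the strand of the GENCODE M21 transcript, and the 12 lower-case letters are the bases just before it in the 3′ UTR.
Hist1h2ap: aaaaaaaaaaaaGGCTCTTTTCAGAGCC
Hist1h2ae: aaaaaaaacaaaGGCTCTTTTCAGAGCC
Hist1h3c: tatttaaaaaaaGGCTCTTTTAAGAGCC

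The pattern was found in 41 of the 60 members, and 22 of them, Hist1h2ap included, had the same 16 bases. The annotated transcript ended within 100 bases after the stem-loop, with no AATAAA or ATTAAA, in 19 members. In 15 members an AATAAA or ATTAAA followed the stem-loop, in 7 the transcript went on without either, in 18 the pattern was not in the annotated transcript, and 1 had no coding annotation. Only the longest coding transcript of each gene was searched. Some of the 18, such as Hist1h1b, are annotated with a 3′ UTR of 0 bases, so a stem-loop after the coding sequence could not be found in them. The 19 members that ended at the stem-loop held 25638 UMIs at day 3 and 10466 at day 5, nearly all of them from Hist1h2ap; the median member of that group had 46 UMIs over both libraries. The 15 members with a signal had a median of 117, the 7 with a long end and no signal 36, and the 18 without the pattern 47. The ends of the members that stopped at the stem-loop also occur for the most part in other genes more often than those of the members with a signal. The part of shared ends in these medians was not tested.

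Hist1h2ap (ENSMUSG00000094777, chromosome 13, 21833026 to 21833507, minus strand), a single-exon H2A gene, gave 24517 UMIs at day 3 and 10001 at day 5. These were 70.9% and 63.6% of all member UMIs. Its run of 12 A directly before the stem-loop was matched only by Hist1h2ao, a near-identical H2A gene on the same chromosome that was chosen for mention after its values were seen and that gave 6 UMIs in all. Every 50-base stretch of the end of the Hist1h2ap transcript also occurs in another gene, first of all Hist1h2ao, so the split of UMIs between these copies is uncertain. An annotated antisense gene, Gm44466, overlaps Hist1h2ap. No source used here says whether counting used strand, and whether reads of Gm44466 entered the Hist1h2ap count was not tested. Hist1h2ae, with a run of 8 A, was the next H2A member with 1773 UMIs over both libraries, and Hist1h3c, with a run of 7 A, was the H3 member with the most UMIs, 182. Members with short runs also had many UMIs: Hist1h1e, Hist1h1c and Hist1h4i, with runs of 3, 4 and 3 A, gave 2002, 1212 and 898. Across the 41 members with a stem-loop, the longest A run in the 20 bases before it and the UMI total had a Spearman correlation of 0.30, a description over members that share sequence. Whether UMIs were primed at these runs was not tested.

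**Figure D1:**
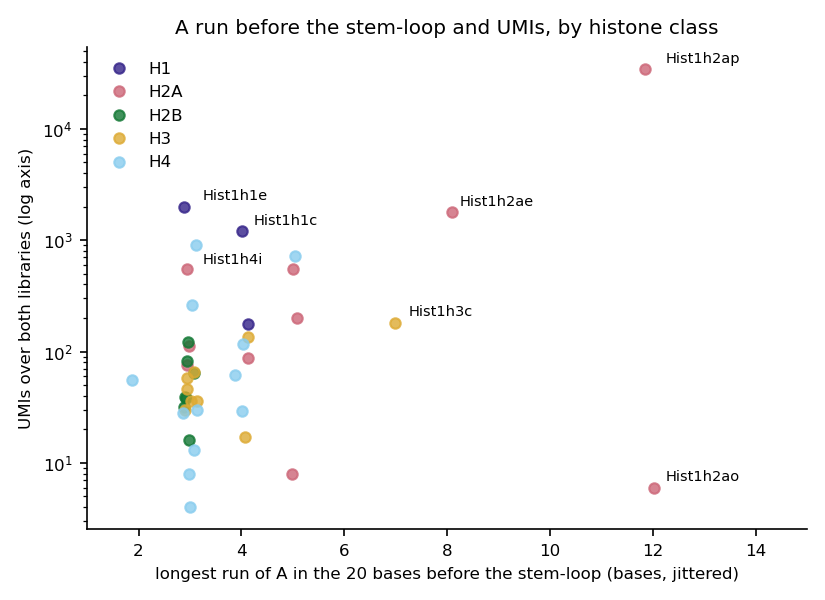
UMIs of each of the 41 members with a stem-loop over both libraries (log axis) against the longest run of A in the 20 bases before the stem-loop (horizontal offsets only separate points), coloured by histone class. Hist1h2ap stands alone at 34518 UMIs with a run of 12 A, while Hist1h2ao has the same run and 6 UMIs.

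Promoters are shown for 2 members whose UMIs were lowest in cells with few cycle genes (below): Hist1h1b, an H1 gene, at chr13:21780626-21780875, and Hist1h2ae at chr13:23571221-23571470, both on the minus strand. Each run is the 250 bases before the RefSeq start in GRCm38.p6, and the capitals mark the TATA box letters TATAAA, the box known by the letters CCAAT and the octamer ATTTGCAT on either strand. In the Hist1h2ae run, TTTATA and ATGCAAAT are matches on the other strand. Both also lie in the 250 bases before Hist1h2bg, a neighbouring H2B gene on the plus strand.
Hist1h1b: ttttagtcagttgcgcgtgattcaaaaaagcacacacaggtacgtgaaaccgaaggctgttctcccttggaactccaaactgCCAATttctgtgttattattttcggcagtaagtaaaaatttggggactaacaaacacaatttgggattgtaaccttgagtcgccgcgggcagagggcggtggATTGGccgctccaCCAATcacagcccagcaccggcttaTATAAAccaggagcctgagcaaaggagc
Hist1h2ae: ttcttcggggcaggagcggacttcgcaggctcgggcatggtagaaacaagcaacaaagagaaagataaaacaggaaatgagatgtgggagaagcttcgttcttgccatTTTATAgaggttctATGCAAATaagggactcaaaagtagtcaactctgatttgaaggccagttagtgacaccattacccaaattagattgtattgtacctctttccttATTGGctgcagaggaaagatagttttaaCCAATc

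Of the 54 members matched in the RefSeq table, 50% held TATAAA, against 13.0% of 27025 genes. CCAAT was found in 79.6% of members and 34.5% of all genes. ATTTGCAT was found in 18.5% of members and 1.61% of all genes, and among the classes only in H2A (37.5%) and H2B (36.4%). Both strands were searched, overlaps between motifs were not removed, and a match is a description of the sequence only. Windows of some neighbouring H2A and H2B members overlap, such as those of Hist1h2ae and Hist1h2bg, so the same site can count for both.

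Depth differed between the libraries: 798 cells at day 3 gave 28764033 UMIs (median 32063.5 per cell) and 1065 cells at day 5 gave 17349076 (median 13549). Values are UMIs of the cells summed, scaled to 1000000 UMIs (CPM), with exact Poisson 95% intervals that cover counting error only. With 1 library per day neither a test nor a p-value can be given for any comparison. A member was called higher or lower where the 2 levels differed by at least 1.5-fold, their intervals did not overlap and the cells compared held at least 10 UMIs of it. Of the lists for other cells, the immune markers Cd68, Lyz2 and Ccl5 gave 44, 2 and 0 UMIs at day 3 and 8, 4 and 12 at day 5, and Vim and Pecam1 of the stromal and endothelial list gave 25 and 4, then 1 and 10; the other 7 of these 12 markers were not analysed here.

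Summed over all cells, members made up 1203 CPM at day 3 and 906 CPM at day 5. Without Hist1h2ap the sums were 351 and 329 CPM. Counting was uneven: 52 members had at least 10 UMIs over both libraries, 23 had at least 100, and 6 had at least 1000. The other 8 members lay below 10, down to 4 UMIs. Levels of different members are captured UMIs and are not set against each other as transcript amounts. Many members share transcript ends with other genes, so their UMIs cannot be assigned to 1 gene with certainty. Of 50-base stretches at the end, 85.8% in Hist1h2an, 78.6% in Hist1h2ag and 79.7% in Hist1h2af occur in another gene. This share was 86.0% in Hist1h3e, 53.8% in Hist1h3c, 56.7% in Hist1h2bj, 52.3% in Hist1h2ak and 44.2% in Hist1h2ae. In Hist1h1b, Hist1h1c, Hist1h4d and Hist1h4i it was 0%.

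Of the 52 members with at least 10 UMIs, 3 were called higher at day 5 and 11 lower. Over all 12782 genes with that many UMIs, 12.3% were called higher and 31.5% lower. The median log2 ratio of day 5 over day 3 was -0.40 over the 52 members and -0.33 over all genes, so the members as a set lay near the background. Scaling with TMM, which moved the median of all genes by 0.31, gave 5 higher and 7 lower. Without TMM, calls were rarer among the members than among all genes in both directions. The values of single genes that follow are descriptions.

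Among the H1 genes, which encode the linker histone that binds DNA between nucleosomes, Hist1h1b had a day 3 level of 40.6 CPM (38.3 to 43.0) and a day 5 level of 13.6 CPM (11.9 to 15.5). The log2 ratio was -1.58, and the intervals did not overlap. Hist1h1e was at 52.4 and 28.5 CPM and Hist1h1a at 3.65 and 1.27 CPM, both called lower. Hist1h1c, with a day 3 level of 24.4 CPM (22.7 to 26.3) and a day 5 level of 29.3 CPM (26.8 to 32.0), was under the fold limit. Hist1h1d, at 4.03 and 3.52 CPM, was not called either. The end of the Hist1h1e transcript is shared in full with the overlapping same-strand genes Hist1h2be and Gm11398, so its UMIs cannot be assigned with certainty.

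In the H2A class, Hist1h2ap had a day 3 level of 852 CPM (842 to 863) and a day 5 level of 576 CPM (565 to 588). Its log2 ratio of -0.56 was just under the fold limit, and with each cell weighed alike it was -1.05 and called lower. With only the day 5 cells above the day 3 minimum depth it was 0.23 and not called. Hist1h2ae was level, at 38.3 and 38.7 CPM. Hist2h2aa1 (chromosome 3, 96245497 to 96246082) was higher at day 5, at 2.43 CPM (1.90 to 3.07) and then 7.38 CPM (6.16 to 8.77), with a log2 ratio of 1.60. Its transcript end is shared in full with Gm20634 and Hist2h2aa2, so this value may belong to any of them. Hist2h2ac (14.1 and 8.24 CPM), Hist1h2an (4.21 and 1.61 CPM) and Hist1h2ag (3.27 and 1.04 CPM) were called lower. Hist3h2a, at 11.4 and 13.0 CPM, Hist1h2ak, at 3.30 and 4.21 CPM, and Hist1h2af, at 2.68 and 3.52 CPM, were not called.

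The H2B class went the other way from H2A in sum, from 66.5 to 122 CPM where H2A went from 938 to 659 CPM, and most H2B UMIs were from 1 gene. Hist1h2bc (ENSMUSG00000018102, chromosome 13, 23684199 to 23692908, plus strand) rose from 50.7 CPM (48.2 to 53.4) to 111 CPM (106 to 116), a log2 ratio of 1.13. Its annotated transcript has 2 exons and a 3′ UTR of 742 bases with 1 AATAAA or ATTAAA, the stem-loop pattern was not in it, and 2.28% of the 50-base windows at its end occur in another gene. Without Hist1h2bc the H2B sum was 15.8 CPM at day 3 and 10.4 CPM at day 5. Hist1h2bj (3.48 and 1.33 CPM) and Hist1h2bb (1.84 and 0.634 CPM) were called lower, and Hist2h2be was at 2.16 and 2.19 CPM.

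H3 members were few in UMIs. Hist1h3c was at 4.97 CPM at day 3 and 2.25 CPM at day 5, and Hist1h3e at 3.58 and 1.90 CPM, both called lower. Hist2h3c2, chosen for mention after its values were seen, was called higher on 10 and 20 UMIs. Of the H4 members, Hist1h4i fell the furthest between days on this scale, from 26.2 CPM (24.3 to 28.1) to 8.36 CPM (7.05 to 9.83), a log2 ratio of -1.64. Hist1h4d (15.99 and 15.4 CPM), Hist4h4 (6.19 and 4.96 CPM) and Hist1h4h (2.05 and 3.34 CPM) were not called.

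**Figure D2:**
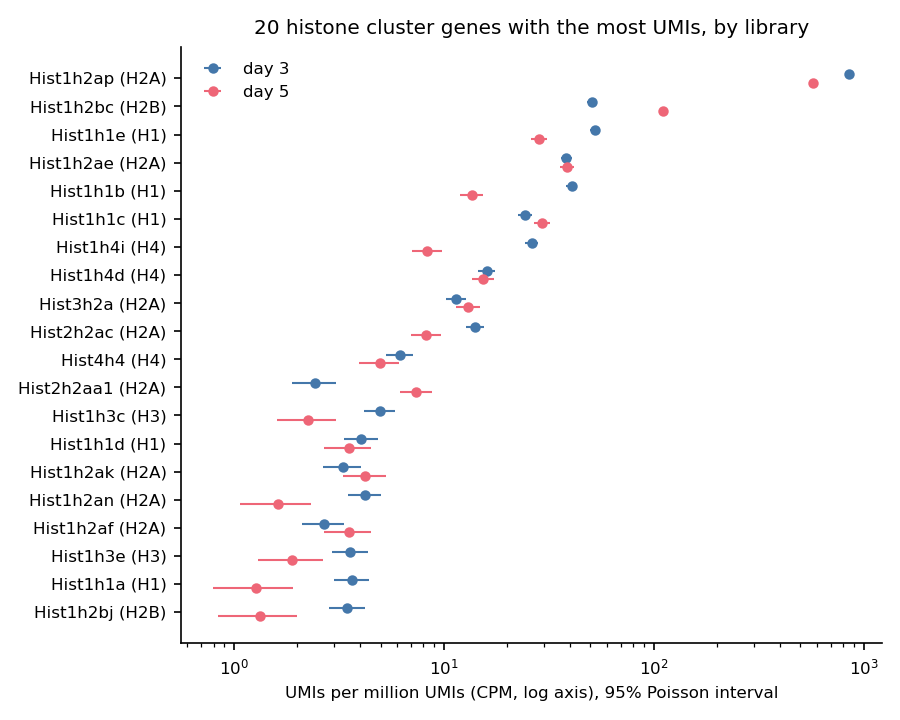
CPM (log axis) of the 20 members with the most UMIs, summed over all cells of the day 3 library (blue) and the day 5 library (red), with exact Poisson 95% intervals and the histone class in brackets. Hist1h2bc and Hist2h2aa1 lie further right at day 5 than at day 3, and Hist1h1b and Hist1h4i further left.

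The day 5 library held other kinds of cells than the day 3 library. Summed enterocyte markers (15 genes) were at 1121 CPM at day 3 and 16636 CPM at day 5, and 38 of 39 genes of an S phase list and 36 of 43 genes of a G2M list, neither holding a histone gene, were called lower at day 5. Without the 623 Enterocyte-like cells of day 5 and 3 of day 3, a comparison added after seeing the data, 6 members were called higher and 2 lower. Hist1h1b (-0.71) and Hist1h4i (-0.99) were the 2 lower, and Hist1h2bc, at 1.02, was still higher. Hist1h2ae (0.86), Hist1h4d (0.73), Hist1h2ak (1.13) and Hist1h2af (1.29) were then called higher. Of these, Hist1h2ae, Hist1h2ak and Hist1h2af share part of their transcript ends with other genes, so their values may not be of 1 gene. Hist2h2aa1 (0.62) and Hist1h1e (-0.32) were no longer called, and the log2 ratios of Hist1h2ap (0.29) and Hist2h2ac (0.10) lay above 0. In summed cells, fewer cells of a type and less RNA per cell cannot be told apart.

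Cells were therefore compared by their levels of cycle genes. Each cell was thinned to 6777 UMIs, the total of the shallowest cell, and its UMIs in the S list (39 genes, such as Mcm2 and Pcna of the replication machinery) and in the G2M list (43 genes, such as Top2a and Ccnb1) were counted. Quartile limits over all cells were 1 and 12 UMIs for the S list and 1 and 22 for the G2M list. Cells at or under both lower limits were called low-both, cells at or over 1 or both upper limits S-high, G2M-high or both-high, and the rest intermediate. These classes are ranges of a score and not cell types: 152 cells lay within 1 UMI of the upper S limit, 77 of the upper G2M limit, 740 of the lower S limit and 702 of the lower G2M limit. Day 3 had 4 low-both, 235 intermediate, 227 S-high, 149 both-high and 183 G2M-high cells. Day 5 had 396, 445, 75, 33 and 116 in the same order.

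At day 5 the summed members were at 205 CPM (192 to 218) in low-both cells, 549 in intermediate, 1073 in S-high, 3469 (3335 to 3607) in both-high and 2368 in G2M-high cells. The order followed the cycle lists from low-both to S-high, but G2M-high cells lay above S-high cells. Median depth also differed, at 11435 UMIs per cell in low-both, 17617 in S-high and 21050 in G2M-high cells, and its part in the result was not tested. Enterocyte markers moved with the classes: all 15 were called lower in S-high than in low-both cells, and their sum was 32510 CPM in low-both and 2413 CPM in S-high cells. The part of cell type in the values below was not tested.

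Hist1h2ap carried most of this range. At day 5 it was at 14.5 CPM (11.4 to 18.3) in low-both cells, 243 in intermediate, 796 in S-high, 2767 (2648 to 2891) in both-high and 1790 in G2M-high cells, and none of the 5 intervals overlapped. In thinned cells 6.82% of low-both (exact binomial 95% interval 4.54 to 9.77), 74.7% of S-high (63.3 to 84.0) and 100% of both-high cells (89.4 to 100) had a UMI of it, and unthinned the shares were 14.4%, 82.7% and 100%. The 72 UMIs in low-both cells may include free RNA, which was not tested. Hist1h2ae went from 1.62 CPM in low-both to 50.7 in S-high, 146 in both-high and 130 in G2M-high cells. Hist1h1b had 0 UMIs in the 396 low-both cells and 19.9, 72.8 and 40.8 CPM in the 3 high classes, which was at least 32.8-fold, 120-fold and 67.3-fold higher against a floor of 3 UMIs summed over the low-both cells.

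Of the 60 members, 18 had at least 10 UMIs in S-high and low-both cells of day 5, and 9 of these were called higher in S-high cells, where 22.5% of all genes tested were. The 9 included Hist1h1e (10.5 CPM in low-both and 41.0 in S-high cells), Hist1h4i (2.22 and 12.8 CPM), Hist1h4d (3.64 and 12.2 CPM) and Hist2h2ac (0.202 and 12.2 CPM, the former on 1 UMI). Between G2M-high and low-both cells 27 members could be compared and 19 were higher, against 23.7% of genes, and between both-high and low-both cells 11 of 17, against 19.5%. By class, those higher in G2M-high cells were 4 of the 5 H1 members tested, 9 of 10 H2A, 0 of 3 H2B, 2 of 4 H3 and 4 of 5 H4. A member passes the UMI minimum more easily where it is high, so these counts are a description of the members that could be compared. With the class limits taken within the day 5 library, which left 82 S-high cells at 242 CPM of summed members, 1 of 9 members was higher in S-high cells (18.6% of genes), 11 of 15 in G2M-high cells (17.2%) and 18 of 35 in both-high cells (23.8%). Lower were 3 members in S-high cells (13% of genes), 0 in G2M-high cells (11.6%) and 2, Hist1h2bc and Hist2h2aa1, in both-high cells (15.9%).

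In S-high cells of day 5, 3 of the 18 members compared were called lower than in low-both cells, a share near the 14% of all genes that were: Hist1h2bc, Hist1h1c and Hist2h2aa1. Hist1h2bc was at 109 CPM (99.7 to 118) in low-both, 154 (145 to 163) in intermediate, 37.8 (28.8 to 48.8) in S-high, 42.6 in both-high and 62.1 in G2M-high cells. It was the 1 member called lower in G2M-high and in both-high cells, where 15.7% and 11.8% of genes were. The G2M-high value turned with the class limits: with limits taken within the day 5 library Hist1h2bc was at 211 CPM (188 to 236) in 68 G2M-high cells and 110 CPM (97.3 to 123) in 210 low-both cells and was called higher. In S-high and both-high cells so defined it was at 55.5 and 61.4 CPM, still called lower. Hist1h1c was at 28.7 CPM in low-both, 34.0 in intermediate, 16.03 in S-high, 24.7 in both-high and 26.8 in G2M-high cells, and only the S-high value was called apart from low-both. With limits within the library it was called higher in G2M-high cells, at 46.4 CPM (36.1 to 58.7) against 27.0 CPM (21.1 to 34.2) in low-both cells. Hist2h2aa1 was at 10.5 CPM in low-both and 2.56 CPM, on 4 UMIs, in S-high cells. Hist3h2a was at 7.88 CPM in low-both, 4.49 in S-high and 22.0 in G2M-high cells, and the last was called higher.

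In low-both cells of day 5 Hist1h2bc gave 538 UMIs and Hist1h2ap 72, and in G2M-high cells 169 and 4874. H2B made up 54.7% of member UMIs there, against 3.54% in G2M-high cells, where H2A made up 85.3%.

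**Figure D3:**
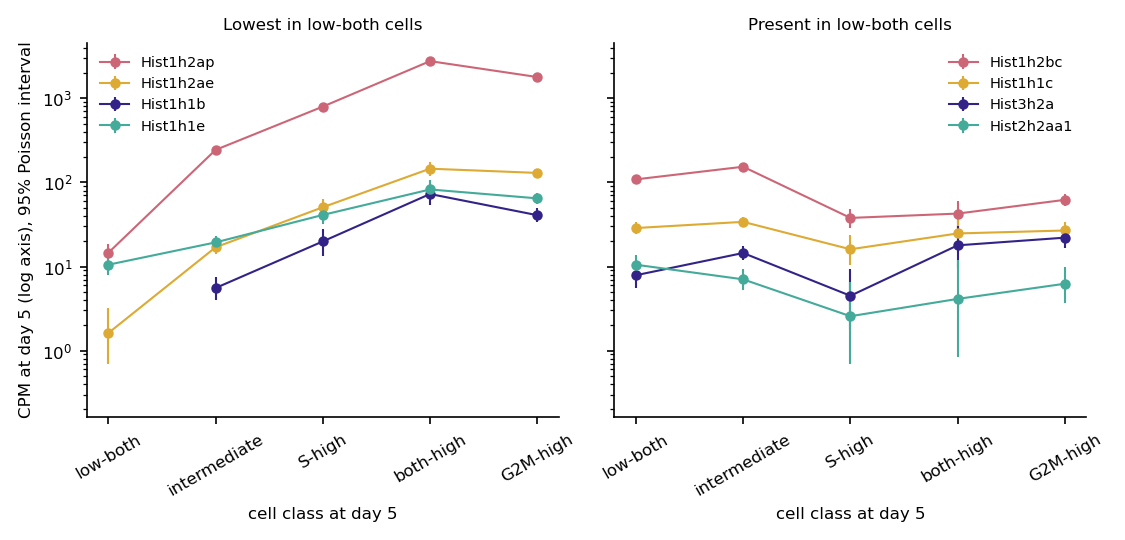
CPM at day 5 (log axis, exact Poisson 95% intervals) is shown in the 5 cell classes. The 4 members on the left were each lowest in low-both cells. The 4 on the right each had a lower value in S-high than in low-both cells. Both sets were chosen after their values were seen. Hist1h1b has no point in low-both cells, where it had 0 UMIs, and the other members on both sides had UMIs there. Hist1h2ap spans 14.5 to 2767 CPM, while Hist1h2bc lies at 109 CPM in low-both and 37.8 CPM in S-high cells.

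**Figure D4:**
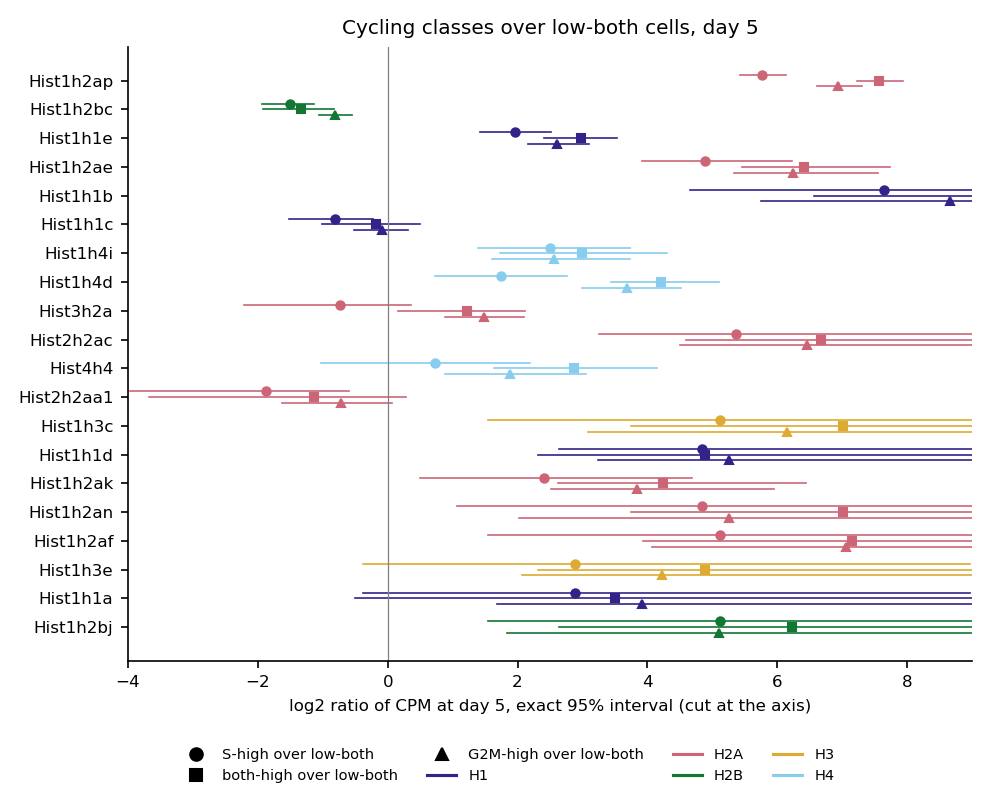
Log2 ratio of CPM in S-high (circles), both-high (squares) and G2M-high cells (triangles) over low-both cells at day 5 for the 20 members with the most UMIs, with exact 95% intervals cut at the axis, coloured by histone class. The 3 points of Hist1h2bc lie left of 0 and those of Hist1h2ap at 5.77, 7.56 and 6.93; for members at 0 UMIs in low-both cells the point depends on the 0.5 UMI added.

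At day 3 the low-both class held 4 cells, so its values are of little use: 4 members were called higher and 2 lower in S-high cells of 32 compared, where 6.22% and 4.27% of genes were. In G2M-high cells it was 3 and 1 of 36 (5.38% and 3.85% of genes) and in both-high cells 4 and 2 of 34 (6.81% and 3.82%). The limits taken within the day 3 library gave 109 low-both cells. Of 33 members compared on that basis, 16 were higher in the 203 S-high cells, where 15.4% of genes were, and 3 were lower, where 15.3% were. The 3 were Hist1h2bc, Hist1h1c and Hist3h2a. Hist1h2bc was at 146 CPM in the low-both and 35.3 CPM in the S-high cells so defined, and Hist1h1c at 51.6 and 18.4 CPM. Hist1h2ap was at 29.0 and 1001 CPM and Hist1h1b at 1.22 and 58.3 CPM. In G2M-high cells 20 of 40 members were higher, against 13.7% of genes, and 2, Hist1h2bc and Hist1h1c, were lower, against 15%. In the 23 both-high cells 7 of 14 were higher (14.2% of genes) and 1, Hist1h2bc, was lower (7.61%). With limits within the library, Hist1h2bc was thus below its low-both level in S-high cells at both days, and in G2M-high cells it was below it at day 3 and above it at day 5.

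Cells of each library were also ranked by the share of their UMIs in a list and cut into 5 groups of equal size, an alternative added after seeing the data. At day 3 Hist1h2ap went from 260 CPM in the group lowest in the S list to 1174 CPM in the highest, and at day 5 from 18.4 to 1451 CPM. Hist1h1b went from 8.91 to 65.8 CPM at day 3 and from 0 to 34.3 CPM at day 5. At day 3 Hist1h2bc was at 120 CPM in the lowest group and between 30.9 and 42.4 CPM in the other 4. At day 5 it lay between 118 and 157 CPM in the lowest 4 groups and at 51.2 CPM in the highest. Ranked by the G2M list at day 5, Hist1h2bc had no such order: from the lowest to the highest group it was at 113, 88.8, 117, 161 and 80.3 CPM. The H2B sum, which is mostly Hist1h2bc, was 129 CPM in the lowest and 55.3 CPM in the highest group at day 3, while the H3 sum was 8.91 and 21.2 CPM and the H4 sum 34.4 and 73.2 CPM.

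**Figure D5:**
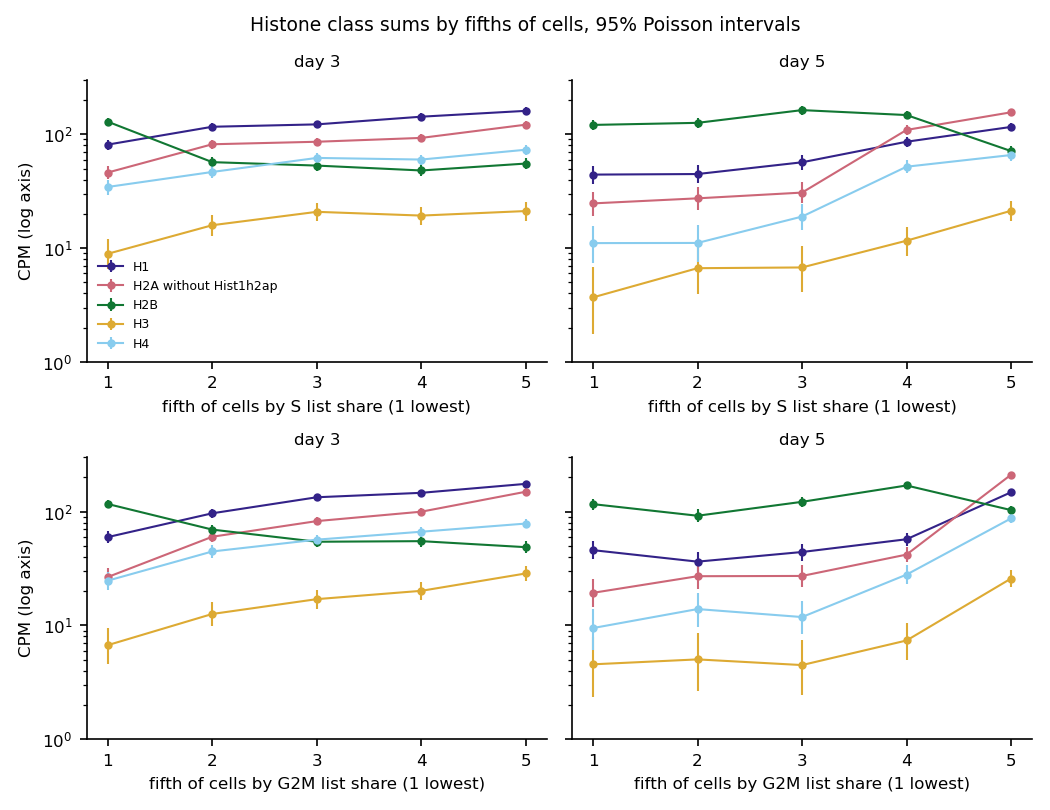
CPM (log axis, exact Poisson 95% intervals) of the summed members of each histone class, H2A without Hist1h2ap, in 5 equal groups of cells ranked by the share of their UMIs in the S list (top) or the G2M list (bottom), at day 3 (left) and day 5 (right). H1, H2A, H3 and H4 peak in the highest group in all 4 panels, whereas H2B is at 129 CPM in the group lowest in the S list at day 3 and at 55.3 CPM in the highest.

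Across thinned cells of 1 library the summed members had a Spearman correlation with the S list of 0.28 at day 3 (798 cells) and 0.43 at day 5 (1065 cells), and with the G2M list of 0.49 and 0.57. For Hist1h2ap the values were 0.36 and 0.58 with the S list and 0.54 and 0.67 with the G2M list. Hist1h2bc had -0.23 and -0.20 with the S list. Cells share a library, and these values are descriptions. The genes most like the summed members, among 3376 non-member genes at day 3, were Top2a (0.53), a topoisomerase of mitotic chromosomes, and Pclaf (0.44), a PCNA-binding factor, followed by Stmn1, Hmgb2, H2afx, Tuba1b, Smc2, Mki67, Cks2 and Ptma. At day 5, among 2856 genes, they were Top2a (0.59), Pclaf (0.56), Hmgb2, Tubb5, Ube2c, Birc5, Cdca3, H2afz, Stmn1 and Ptma. H2afx and H2afz are H2A variant genes outside the histone clusters.

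Within a class the days differed most in the cells with high G2M genes. In both-high cells the summed members were at 1808 CPM at day 3 and 3469 CPM at day 5, while the S list was at 2084 and 2017 CPM and the G2M list at 4476 and 4658 CPM. Of 37 members compared there, 5 were called higher at day 5, against 4.36% of genes, and 0 lower, against 10.6%. Hist1h2ap was at 1351 and 2767 CPM, Hist1h2ae at 65.7 and 146 CPM, and Hist1h4d at 25.9 and 68.7 CPM (a log2 ratio of 1.42, but -1.11 and not called with class limits at the upper and lower 1/10, which left 5 cells at day 3 and 1 at day 5), and Hist1h2ak and Hist1h2af were the others. In G2M-high cells 9 of 41 were higher, against 6.11%, and 1, Hist1h4i, was lower at 27.4 and 13.6 CPM, against 15.7%. The median depth of both-high cells was 34783 UMIs at day 3 and 19873 at day 5, and its part in this difference was not tested.

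In S-high cells the summed members were at 1152 CPM at day 3 and 1073 CPM at day 5, and 1 of 36 members was called higher and 2 lower, against 5.1% and 13.9% of genes. The 1 higher was Hist1h2ac, on 9 and 8 UMIs, named after its values were seen. The 2 lower were Hist1h1b (43.3 and 19.9 CPM) and Hist1h4i (32.5 and 12.8 CPM). Hist1h2bc was at 37.7 CPM at day 3 and 37.8 CPM at day 5 in these cells, where over all cells it was 50.7 and 111 CPM. In intermediate cells it was at 89.97 and 154 CPM, and Hist2h2aa1 at 2.15 and 7.04 CPM. These were the 2 members of 33 called higher there, against 8.37% of genes, and 2, Hist1h1b and Hist1h4i, were lower, against 26.5%.

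Clustering of the cells without the member genes gave 12 clusters, each nearly all from 1 library except a mixed secretory cluster (46 day 3 and 40 day 5 cells) and an Enteroendocrine-like cluster (8 and 5). The Enterocyte-like clusters of day 5 held 364 and 259 cells, with summed members at 186 and 280 CPM. In the first, Hist1h2ap was at 7.9 CPM, Hist1h1b was at 0 and Hist1h2bc was at 107 CPM. An unnamed day 5 cluster of 201 cells led by Sycn and Defb37 had the highest Hist1h2bc of these clusters, 150 CPM (138 to 163), with Hist1h2ap at 203 CPM; its S list was at 1124 CPM, against 136 CPM in the first Enterocyte-like cluster. A day 5 cluster of 184 cells led by Mxd3, Neil3 and Nusap1 and left unnamed held 2536 CPM of members, with 1940.5 CPM of Hist1h2ap and 59.6 CPM of Hist1h2bc. At day 3 the summed members were at 1801 CPM in the Proliferating-like cluster (141 cells), 1486 CPM in the Stem-like cluster (117 cells) and 564 CPM in an unnamed cluster of 55 cells led by Mal and Dse, where Hist1h2bc was at 106 CPM, Hist1h1c at 68.6 CPM and Hist3h2a at 30.2 CPM.

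Genes that act on histone mRNA and protein lie outside the histone clusters. Of 11 genes of histone transcription and 3′ processing, 9 were called lower at day 5, where 31.5% of all genes were, with a median log2 ratio of -0.97 against -0.33 over all genes. Slbp, the stem-loop binding protein, was at 88.3 CPM at day 3 and 45.4 CPM at day 5, and Npat, the coactivator of histone genes, at 12.7 and 5.25 CPM. Between S-high and low-both cells of day 5, 6 of the 10 that could be compared were higher, where 22.5% of all genes were, among them Slbp at 104 and 22.4 CPM. Of 15 histone chaperone genes 12 were lower at day 5 and 13 were higher in S-high than in low-both cells, against the same 31.5% and 22.5%, with Asf1b at 37.2 CPM in S-high cells on 58 UMIs and 0.404 CPM on 2 UMIs in low-both cells. Of 10 genes listed here as replication-independent histone genes, 2 were higher and 4 lower at day 5, shares near those of all genes (12.3% and 31.5%). H3f3b, an H3.3 gene, was at 1089 and 913 CPM, and in day 5 cells at 850 CPM in S-high and 737 CPM in low-both cells.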

How the data were processed

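Single-cell 3′ RNA libraries of intestinal organoids at day 3 and day 5 were used, 1 each. The authors deposited UMI counts per gene and cell, and the submitters' processing notes name Cell Ranger 1.3.0 and mm10. The filters and the annotation release are stated in no source used here. They also deposited log2 values, each the log2 of the count over the cell's size factor plus 1, as recomputed from the counts; these entered 1 alternative only. Symbols came from GENCODE M21 (15681 of 15745 genes). Cells carry numbers in place of barcodes, and the libraries shared 0 cell numbers. Doublets were not called.

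The members, gene lists and comparisons were chosen with earlier results of these data known. Counts were summed over cells and given as CPM with exact Poisson 95% intervals (scipy 1.17.1); shares have exact binomial intervals. Log2 ratios used 0.5 UMI added to each sum. The call rule, 1.5-fold with intervals apart and at least 10 UMIs, was run on simulated Poisson counts with set changes. These counts held no added variation between cells or libraries, so the run says nothing on either. Clusters used scanpy 1.11.5, with 2000 variable genes other than members, 30 components, 15 neighbours and Leiden resolution 1. Transcript ends were read from GENCODE M21 and promoters from RefSeq. The text names the 20 members with the most UMIs, the 2 with the most in each class, the 5 highest and 5 lowest ratios between days and between S-high and low-both cells within each day, among members with at least 50 UMIs, and genes of the lists; other members named were chosen after their values were seen. Alternatives were TMM scaling (edgeR 4.0.16), other UMI and fold limits, class limits, lists, thinning, cell weights, cell depth, removal of each gene's top cell or of the deepest 5% of cells, the deposited log2 values and 35-base or 90-base windows; those without Enterocyte-like cells, those for the comparisons within classes and for the G2M-high and both-high cells, single members under each alternative there, and the 5 ranked groups were chosen after seeing the data.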

Additional observations from a re-analysis of the deposited data

How the results depend on the processing

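With 1 library per day no call has a replicate check, and no paired analysis was possible because each day has 1 library. Calls rest on UMI counts, and the 8 members under 10 UMIs could not be compared. Of the counts of called members under alternatives, 173 stayed within 1.5 times the value reported and 61 did not; the cause was not tested. Of the values of the 20 members with the most UMIs over all comparisons, 2096 kept direction and call (or stayed uncalled), 108 lost the call, 126 gained one, and 10 called log2 ratios changed sign. Hist2h2ac between days was 0.10 without Enterocyte-like cells. Hist1h2bc in G2M-high over low-both cells of day 5 was 0.94 with limits within the library. Hist1h4d between days within both-high cells was -1.11 with limits at upper and lower 1/10. The other 7 were over the low-both cells of day 3, at most 4 in number: with classes from unthinned UMIs, which left 1 such cell, Hist1h2bc was 1.02, 0.93 and 0.50 in S-high, G2M-high and both-high cells and Hist1h1c 0.18 and 0.11 in S-high and both-high cells, and without the deepest 5% of cells Hist1h1c was 1.21 and 1.55 in S-high and both-high cells. Numbers below are members higher, then lower.

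Between days (3 and 11), TMM scaling gave 5 and 7, day 5 cells above the day 3 minimum depth gave 7 and 3, and cells that were not Enterocyte-like gave 6 and 2. Under the depth limit Hist1h1e, Hist2h2ac, Hist1h3c, Hist1h2an, Hist1h3e, Hist1h1a and Hist1h2bj were no longer called lower. Hist1h2ae, Hist1h4d, Hist1h2ak and Hist1h2af were called higher under it.

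At day 3, S-high over low-both cells (4 and 2) gave 1 lower with each cell weighed alike, 1 and 0 without the deepest 5% of cells, 16 higher with limits within the library, and 1 and 0 with classes from unthinned UMIs. G2M-high cells (3 and 1) gave 1 and 0 without the deepest 5%, 7 and 2 with limits at upper and lower 1/3, 20 and 2 within the library, 5 higher with the short replisome list, 1 and 0 unthinned, and 6 and 2 with another seed. Both-high cells (4 and 2) gave 1 lower with each cell alike, 0 lower without the deepest 5%, 10 higher at 1/3, 7 and 1 within the library, and 1 and 0 unthinned. Limits at upper and lower 1/10 left 0 low-both cells at day 3 and gave no value there.

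At day 5, S-high cells (9 and 3) gave 1 lower at 1/10 and 1 higher within the library. G2M-high cells (19 and 1) gave 0 lower at a 2-fold limit and at 1/3, 11 and 0 within the library, and 2 lower unthinned or with another seed. Both-high cells (11 and 1) gave 23 higher with no UMI minimum, 18 higher at 1/3, 1 and 0 at 1/10, and 18 and 2 within the library.

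Between days within intermediate cells (2 and 2), TMM gave 5 higher, a 2-fold limit 1 higher, 1/3 limits 0 lower, 1/10 limits 11 lower, unthinned classes 1 lower, and cells not Enterocyte-like 0 lower. Within S-high cells (1 and 2), TMM gave 2 higher, each cell alike 0 higher, 1/3 limits 0 higher, 1/10 limits 2 higher and 1 lower, the short list 0 higher, and unthinned classes 2 higher. Within both-high cells (5 and 0), 1/3 limits gave 8 higher and 1/10 limits 1. Within G2M-high cells (9 and 1), a 2-fold limit and 1/10 limits gave 0 lower.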
